A study of Mus musculus with 24 samples.

Results

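Zymosan was compared with lipopolysaccharide (LPS) in dendritic cells labelled as knockout (KO) for IRE1, the endoplasmic reticulum (ER) stress sensor that the gene Ern1 encodes. The comparison set the 4 libraries of KO cells given zymosan against the 4 of KO cells given LPS, 8 of the 24 libraries of the series, over all genes measured. Both groups are murine dendritic cells grown from bone marrow and carry the same label, IRE1 KO, so they differ by the stimulus alone as far as the labels say. The sample titles speak of treated mice and the RNA protocol of stimulated cells. Strain, age, dose, duration, the kind of deletion and any Cre line are not given in the sources used here. Further groups used below are untreated KO cells and wild type (WT) cells with zymosan or with LPS, 4 libraries each. The labels number the replicates but do not say whether they were separate mice or cultures, so the p-values measure the spread between these libraries, which may be technical.

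Zymosan is a particle made from yeast cell wall. Its glucan is bound by dectin-1, a lectin receptor that signals through Syk and Card9, and it also engages Toll-like receptor TLR2. LPS, from the outer membrane of Gram-negative bacteria, is bound by TLR4, which signals both through MyD88 and, from endosomes, through TRIF. The TRIF arm activates IRF3 and interferon beta, which in turn raises interferon-stimulated genes. IRE1 cuts Xbp1 mRNA during ER stress, and the spliced product XBP1s raises genes for protein folding and secretion.

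The 8 libraries held 32223256 to 41698895 counts each, and 14188 genes were tested. Levels are CPM, the count relative to the library total scaled by edgeR's normalization factors and given for replicates 1 to 4 in that order. Differences are log2 of zymosan over LPS ± standard error (SE) from an edgeR quasi-likelihood model with n = 4 libraries per group, and a call means a p under 0.05 after Benjamini-Hochberg adjustment over all genes tested. Within each stimulus, replicates 1 and 2 resembled each other, as did 3 and 4. The chi-square per gene, near 1 for counting noise, was 1.91 to 6.02 within these pairs and 13.5 to 18.1 between them. The first principal component of the 8 libraries (41.9% of the variance) separated the stimuli, and the second (15.6%) separated replicates 1 and 2 from 3 and 4. Where summing the counts of each pair, which leaves 2 values per group, ended a call, the adjusted p of that fit is given ("summed pairs"). That fit holds no term for the pairs, so a difference between pairs counts as spread in it.

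Ern1 was no lower in cells labelled KO than in those labelled WT. It stood at 39.2, 38.6, 36.2 and 35.6 CPM with zymosan and 41.8, 41.4, 37.6 and 36.6 CPM with LPS in KO cells, and at means of 30.2 and 28.5 CPM in WT cells. The count covers the whole gene (ENSMUSG00000020715, chromosome 11, 106394650 to 106487852, minus strand), so it says nothing about a deletion of single exons. Ern1 did not pass between the stimuli (-0.07 ± 0.05, edgeR adjusted p = 0.268).

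In KO cells, zymosan gave higher levels of neutrophil-attracting chemokines, Csf3, Tnf and immediate early transcription factors than LPS did. LPS gave higher levels of Il12b, Ccl5, the CXCR3 ligands and interferon-stimulated genes. Of the 14188 genes, 3227 (22.7%) were higher and 2832 (20.0%) lower with zymosan by edgeR. The counts of genes called on each list below are to be read against these shares. In 5510 of the 14188 genes (38.8%) the zymosan and LPS libraries did not overlap. The largest rises and falls named below were chosen with no overlap as a condition, so it is no added evidence for them. Over all genes tested, called or not, the median size of the log2 difference was 0.20. Among the called genes, 231 (1.63% of those tested) were over 2-fold higher and 181 (1.28%) over 2-fold lower. With summed pairs, where 15378 genes were tested, 1969 were called higher and 1582 lower. List counts from that fit are to be read against these lower numbers and not against 22.7% and 20.0%.

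Set against untreated KO cells, the larger differences fell most often into a pair of patterns, and many genes lay outside both. Among the 181 genes over 2-fold lower with zymosan, 115 had all 4 untreated libraries below every stimulated library, so they were lowest without a stimulus, intermediate with zymosan and highest with LPS. Il12b and Ccl5 are examples. In another 45 of the 181 the untreated range met that of zymosan and lay below that of LPS. Among the 231 genes over 2-fold higher with zymosan, 127 had all untreated libraries above every stimulated one, and 10 had them below. For these 127 the level was highest without a stimulus and lowest with LPS, as in Cdh1, Plau and Ckb. In another 55 the untreated range met that of zymosan and lay above that of LPS, as in Egr1. The order of Cxcl1 and Tnf, lowest untreated and highest with zymosan, was that of the 10. The share of all tested genes in each of these classes was not counted, so the classes cannot be called particular to the larger differences.

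**Figure D1:**
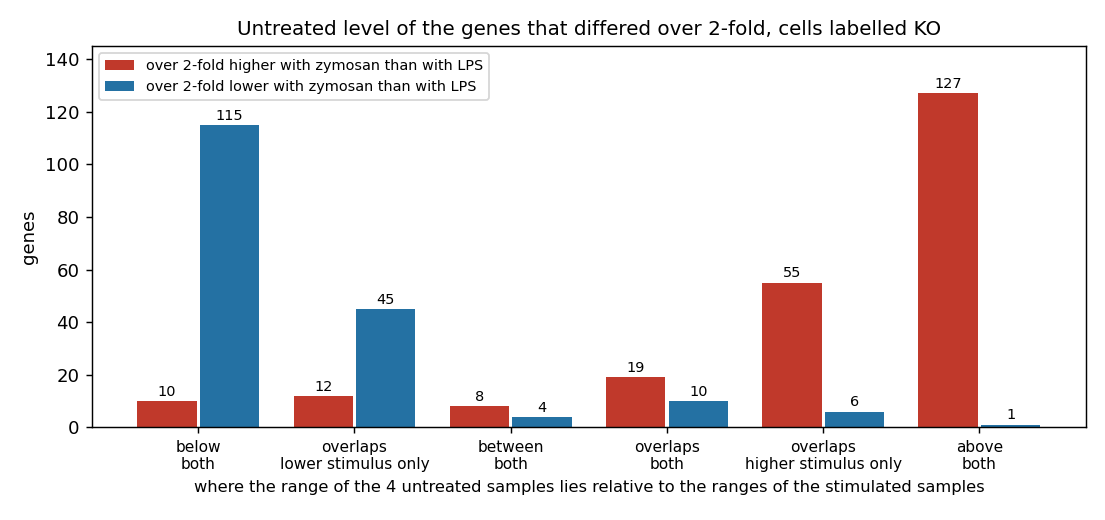
Number of genes (vertical axis) that differed over 2-fold between zymosan and LPS in KO cells, by where the range of the 4 untreated libraries lies relative to the ranges of both stimulated groups. Genes lower with zymosan (blue) are mostly below both when untreated (115 of 181), and genes higher with zymosan (red) are mostly above both (127 of 231). The same classes were not counted over all genes tested.

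Chemokines listed as attracting neutrophils were mostly higher with zymosan. Of 6 tested on that list 4 were higher and 0 lower (median 0.62, against 0.00 over all genes). Cxcl1 (ENSMUSG00000029380, chromosome 5, 90891241 to 90893115, plus strand) stood at 112, 118, 150.4 and 139 CPM with zymosan, 27.7, 28.8, 35.3 and 33.2 CPM with LPS and a mean of 1.6 CPM untreated. All zymosan libraries lay above all LPS libraries, a condition for the largest rises named here, and the fold was 4.15 (log2 2.05 ± 0.11, edgeR adjusted p = 7.46e-13). Cxcl2 (ENSMUSG00000058427, chromosome 5, 90903871 to 90905938, plus strand), its neighbour on the chromosome, stood at 1049, 1068, 1121 and 1069 CPM with zymosan and 303, 318, 365 and 345 CPM with LPS. Its groups did not overlap either (3.24-fold, log2 1.69 ± 0.09, edgeR adjusted p = 6.88e-13). Cxcl5 followed at a lower level, with means of 28.6 and 17.6 CPM (log2 0.70 ± 0.14, edgeR adjusted p = 2.18e-04). The platelet-type members Pf4 and Ppbp did not pass.

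The promoters of Cxcl1 and Cxcl2 are shown because these neighbours had the largest differences of their list. Sequences are from RefSeq (GRCm38.p6), 250 bases before to 50 after the start of the gene, 5′ to 3′ on the gene's strand, at chr5:90890995-90891294 and chr5:90903649-90903948. Capitals mark the letters that match an NF-κB type motif, searched on both strands by name (kappaB: 3 G, a purine, any base, A or T, a pair of pyrimidines, then CC).
Cxcl1: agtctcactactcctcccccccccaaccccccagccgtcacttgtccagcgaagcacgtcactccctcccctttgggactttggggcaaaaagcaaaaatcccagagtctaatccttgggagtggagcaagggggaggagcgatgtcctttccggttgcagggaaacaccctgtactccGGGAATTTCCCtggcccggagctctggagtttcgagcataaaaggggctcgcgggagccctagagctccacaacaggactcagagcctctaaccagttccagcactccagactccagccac
Cxcl2: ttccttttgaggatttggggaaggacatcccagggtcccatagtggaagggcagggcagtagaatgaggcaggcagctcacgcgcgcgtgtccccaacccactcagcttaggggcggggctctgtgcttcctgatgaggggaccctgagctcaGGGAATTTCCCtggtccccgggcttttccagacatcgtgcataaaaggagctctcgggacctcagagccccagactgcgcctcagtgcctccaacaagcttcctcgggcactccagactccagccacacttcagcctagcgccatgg
Each promoter holds the same letters, and the motif matched once on each strand with 9 bases of overlap. They lie 71 bases before the start in Cxcl1 and 97 in Cxcl2. The motif was present in 3 of 5 promoters of the chemokine list, in 6.25% of the 10444 tested genes with a promoter sequence, in 12.4% of the 161 among genes over 2-fold higher and in 7.21% of the 111 among genes over 2-fold lower. A match is a description of the letters and not a measured binding site.

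Csf3, the granulocyte colony-stimulating factor (ENSMUSG00000038067, chromosome 11, 98701263 to 98703629, plus strand), had the largest fold among the higher genes named here. It stood at 11.9, 12.4, 15.5 and 17.3 CPM with zymosan and 2.43, 2.7, 2.78 and 3.08 CPM with LPS, 5.19-fold apart (log2 2.38 ± 0.12, edgeR adjusted p = 2.76e-13), and replicates 3 and 4 were highest with zymosan. Csf2, the granulocyte-macrophage factor, was 3.08-fold higher at only 33 to 49 counts per zymosan library against 11 to 17 with LPS (log2 1.62 ± 0.29, edgeR adjusted p = 6.66e-05). Csf1, the macrophage factor, was higher as well (log2 0.57 ± 0.06), but its mean with zymosan, 200.4 CPM, was near the untreated mean of 202 CPM, while LPS stood at 134 CPM. In all, 4 of 11 colony-stimulating factors and receptors were higher and 1 lower.

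Tnf, the tumour necrosis factor (ENSMUSG00000024401, chromosome 17, 35199381 to 35202007, minus strand), stood at 1458, 1455, 1620 and 1492 CPM with zymosan, 536, 535, 644 and 634 CPM with LPS and 214, 203, 249 and 215 CPM untreated. The 3 conditions did not overlap, and the fold between the stimuli was 2.56 (log2 1.36 ± 0.07, edgeR adjusted p = 5.40e-13). Tnfsf15, a TNF family ligand that acts on T cells, was 2.22-fold higher (edgeR adjusted p = 6.08e-06). Of 18 TNF family ligands and receptors 8 were higher and 5 lower (6 and 3 with summed pairs). The chemokines Ccl3 and Ccl4, which attract monocytes and T cells, were higher too, with means of 1870 against 1065 CPM (log2 0.81 ± 0.08, edgeR adjusted p = 7.70e-09) and 1622 against 837 CPM (log2 0.95 ± 0.07, edgeR adjusted p = 3.09e-11).

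**Figure D2:**
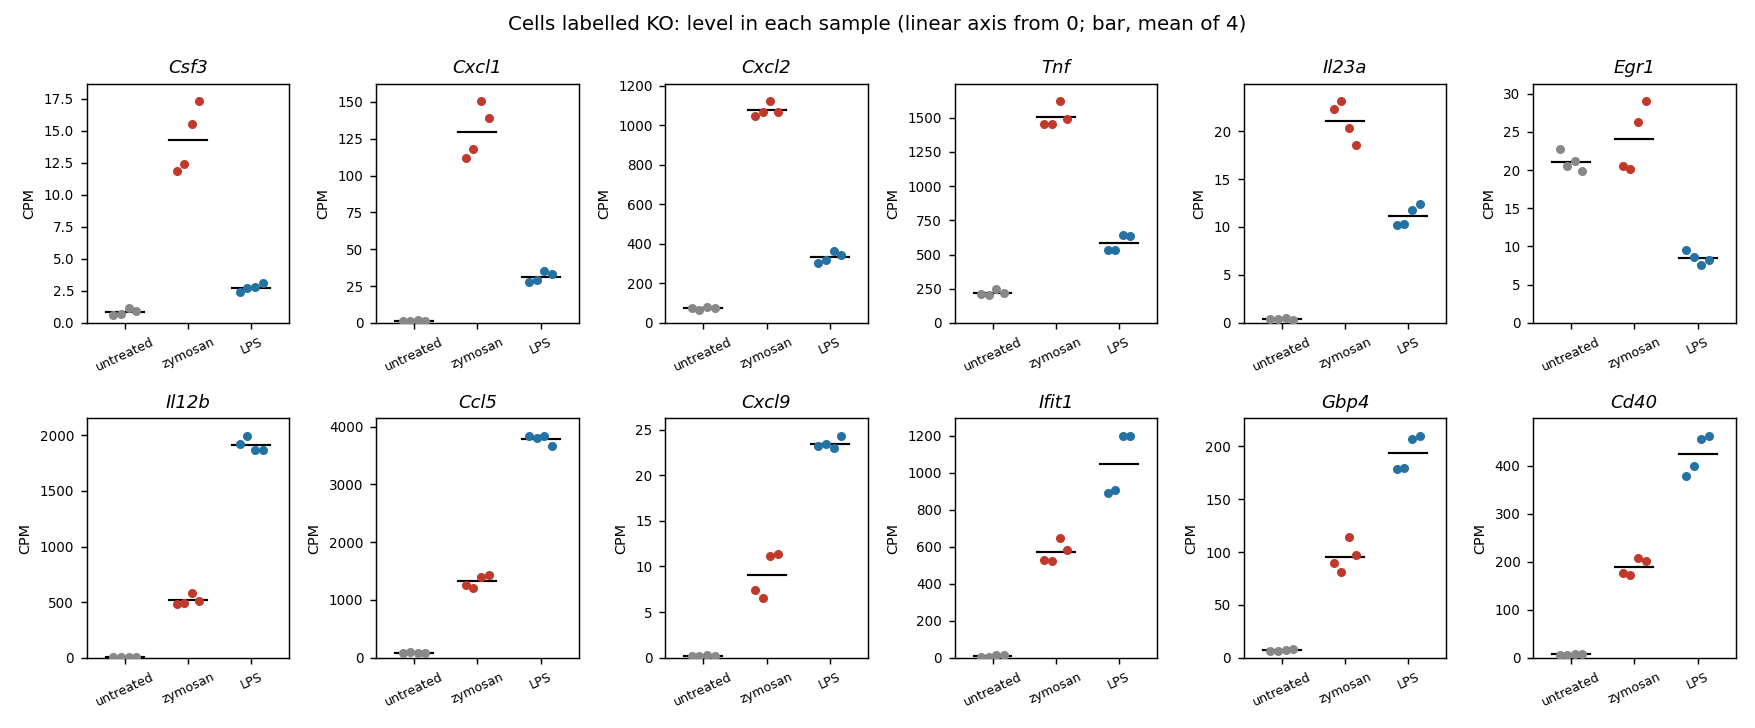
Level in CPM (vertical axis, linear from 0) of 12 genes in each of the 4 libraries of untreated (grey), zymosan (red) and LPS (blue) KO cells, with a bar at the mean. In the upper row every zymosan library lies above every LPS library, in the lower row every one lies below, and Egr1 with zymosan lies near its untreated level.

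Within the interleukin families the members moved apart. Il12b, the p40 subunit shared by IL-12 and IL-23 (ENSMUSG00000004296, chromosome 11, 44400063 to 44414033, plus strand), stood at 482, 491, 579 and 513 CPM with zymosan and 1920, 1994, 1867 and 1865 CPM with LPS, and near 2.12 CPM untreated. It was 3.7-fold lower with zymosan (log2 -1.89 ± 0.08, edgeR adjusted p = 5.37e-15). Il23a, the p19 subunit that pairs with p40 to form IL-23, went the other way, with 22.3, 23.1, 20.3 and 18.6 CPM with zymosan and 10.2, 10.3, 11.8 and 12.4 CPM with LPS (log2 0.92 ± 0.11, edgeR adjusted p = 1.98e-07). Il12a, the p35 subunit that pairs with p40 to form IL-12, did not pass, at means of 18.2 and 17.2 CPM (log2 0.08 ± 0.08, edgeR adjusted p = 0.474). Ebi3, a subunit of IL-27, was lower (log2 -0.66 ± 0.06). Of 7 genes of this family 1 was higher and 3 lower.

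Il1a was higher with zymosan (means 3972 and 2731 CPM, log2 0.54 ± 0.06, edgeR adjusted p = 1.27e-07), whereas Il1b, at 4459 and 4231 CPM, did not pass (0.08 ± 0.05, edgeR adjusted p = 0.248). Il18, another member of the IL-1 family, was 3.37-fold lower (log2 -1.75 ± 0.11, edgeR adjusted p = 8.47e-12). Il6 and Il10, chosen after their values were seen, were both higher. Il6 stood at 360.3, 378, 472 and 399 CPM with zymosan and 238, 253, 325 and 312 CPM with LPS (log2 0.51 ± 0.09, edgeR adjusted p = 4.41e-05). Il10, the anti-inflammatory cytokine, stood at means of 7.48 and 5.32 CPM (log2 0.48 ± 0.10, edgeR adjusted p = 4.26e-04). Over the 16 genes of the list of other cytokines that holds them, 5 were higher and 8 lower (5 and 6 with summed pairs).

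Ccl5 had the largest absolute shift among the chemokines. Encoded at chromosome 11, 83525778 to 83530518, minus strand (ENSMUSG00000035042), this attractant of T cells stood at 1258, 1205, 1402 and 1431 CPM with zymosan and 3837, 3799, 3832 and 3672 CPM with LPS, and it was 2.86-fold lower with zymosan (log2 -1.52 ± 0.09, edgeR adjusted p = 3.20e-12). The CCR4 ligand Ccl22 was lower (2994 against 4421 CPM, log2 -0.56 ± 0.06, edgeR adjusted p = 7.76e-08), while the other ligand of that receptor, Ccl17, did not pass (log2 -0.13 ± 0.08). Ccr4 itself, the receptor for both, stood at 5.88, 4.52, 6.27 and 5.96 CPM with zymosan and 28.7, 30.7, 31.5 and 30.9 CPM with LPS, 5.39-fold lower (log2 -2.43 ± 0.11, edgeR adjusted p = 1.60e-14). Ccr2, which draws monocytes out of the marrow, was 2.18-fold higher with zymosan than with LPS and below its untreated level with both (means 380.0, 174 and, untreated, 567 CPM, edgeR adjusted p = 9.69e-11).

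All 3 CXCR3 ligands, which attract activated T cells and are raised by interferons, were lower with zymosan. Cxcl9 (ENSMUSG00000029417, chromosome 5, 92321347 to 92328079, minus strand) stood at 7.37, 6.59, 11.1 and 11.4 CPM with zymosan and 23.2, 23.4, 23 and 24.3 CPM with LPS (log2 -1.37 ± 0.12, edgeR adjusted p = 1.38e-09). Within zymosan, replicates 3 and 4 lay above 1 and 2, and all 4 lay below the LPS libraries. Cxcl11 (log2 -1.02 ± 0.12, edgeR adjusted p = 4.06e-07) and Cxcl10 (log2 -0.88 ± 0.19, edgeR adjusted p = 4.53e-04) were lower too, the latter from a mean of 1445 CPM with LPS to 786 CPM with zymosan.

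Interferon-stimulated genes were lower with zymosan as a group. Of 33 tested, 28 were lower and 0 higher, with a median log2 difference of -0.53. All 33 lay above the untreated range with both stimuli, so they were present after zymosan and more abundant after LPS. The share of all tested genes above the untreated range with both stimuli was not counted. With summed pairs 17 of the 33 were called lower. Ifit1, an antiviral RNA-binding protein (ENSMUSG00000034459, chromosome 19, 34640871 to 34650009, plus strand), stood at 527, 523, 648 and 581 CPM with zymosan, 892, 908, 1196 and 1198 CPM with LPS and a mean of 9.12 CPM untreated (log2 -0.88 ± 0.20, edgeR adjusted p = 9.80e-04). Cmpk2, a mitochondrial nucleotide kinase, had log2 -0.99 ± 0.20 and Isg20, an exonuclease, -0.83 ± 0.08 (edgeR adjusted p = 2.29e-04 and 5.10e-09). Rsad2, the antiviral enzyme viperin, had the largest absolute gap of the list (1826 against 3202 CPM, log2 -0.81 ± 0.21, edgeR adjusted p = 0.00262, and 0.0617 with summed pairs). Ifi204 and Parp14 did not pass (edgeR adjusted p = 0.0643 and 0.123), although they were called lower in 8 and 5 of the 18 alternative fits.

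Guanylate-binding proteins and immunity-related GTPases, which attack the vacuoles of intracellular microbes, followed the same direction. Of 15 tested 14 were lower and 0 higher (10 and 0 with summed pairs, median -0.67). Among the 14 were Iigp1 (log2 -1.38 ± 0.15), Gbp4 (-1.03 ± 0.09) and Tgtp2 (-0.99 ± 0.14, a gene with a near-identical copy, so its share of reads is less certain). Gbp2, chosen after its values were seen, stood at 1543, 1521, 2067 and 1882 CPM with zymosan and 2634, 2719, 3050 and 3133 CPM with LPS (log2 -0.72 ± 0.11, edgeR adjusted p = 1.52e-05). Gvin1, a very large GTPase, did not pass (log2 0.08 ± 0.06).

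The promoters of Ifit1 and Gbp2 are shown as examples of these lists, at chr19:34640639-34640938 and chr3:142620413-142620712 (RefSeq, GRCm38.p6, same window and orientation). Capitals mark matches to the core of the interferon-stimulated response element, ISRE: GAAA, any 2 bases, GAAA, on either strand.
Ifit1: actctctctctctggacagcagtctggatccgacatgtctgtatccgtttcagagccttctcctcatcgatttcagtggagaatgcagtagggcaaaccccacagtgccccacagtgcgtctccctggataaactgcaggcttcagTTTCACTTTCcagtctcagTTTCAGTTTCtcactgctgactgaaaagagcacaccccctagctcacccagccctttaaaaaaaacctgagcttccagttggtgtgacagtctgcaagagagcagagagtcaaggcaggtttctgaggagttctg
Gbp2: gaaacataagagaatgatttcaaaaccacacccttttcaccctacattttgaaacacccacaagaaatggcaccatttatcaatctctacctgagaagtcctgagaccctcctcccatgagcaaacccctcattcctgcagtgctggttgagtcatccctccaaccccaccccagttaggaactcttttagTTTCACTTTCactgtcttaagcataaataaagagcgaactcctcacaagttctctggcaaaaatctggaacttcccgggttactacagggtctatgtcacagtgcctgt
Ifit1 holds 2 matches, 104 and 85 bases before the start, and Gbp2 holds 1, 59 bases before it, all on the minus strand. The letters were found in 14 of 23 promoters of the interferon-stimulated list (60.9%) and in 9 of 10 of the GTPase list, against 4.02% over all tested genes with a promoter. They were found in 4.97% of promoters of genes over 2-fold higher and in 6.31% of those over 2-fold lower.

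Interferon beta mRNA was not lower with zymosan. Ifnb1 (ENSMUSG00000048806, chromosome 4, 88522025 to 88522774, minus strand) had 39 to 48 counts in each zymosan library, 21 to 34 in each LPS library and 0 in each untreated one. In CPM that was 1.14, 1.04, 1.36 and 1.33 with zymosan and 0.652, 0.524, 0.83 and 0.902 with LPS, higher with zymosan (log2 0.74 ± 0.22, edgeR adjusted p = 0.00905, and 0.0957 with summed pairs). Ifnar2, a chain of its receptor, was lower (log2 -0.45 ± 0.04, edgeR adjusted p = 2.77e-09). Among interferon regulatory factors, STATs and related factors 15 of 23 were lower and 3 higher (10 and 1 with summed pairs, median -0.22). Batf, an AP-1 factor of dendritic cells and lymphocytes, led with 21.5, 19.4, 20.6 and 20.7 CPM with zymosan and 48.4, 51.7, 57.9 and 56.2 CPM with LPS (log2 -1.38 ± 0.08, edgeR adjusted p = 1.02e-12), followed by Irf7, the amplifier of interferon genes (log2 -0.72 ± 0.15). Irf5 and Stat6 did not pass.

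**Figure D3:**
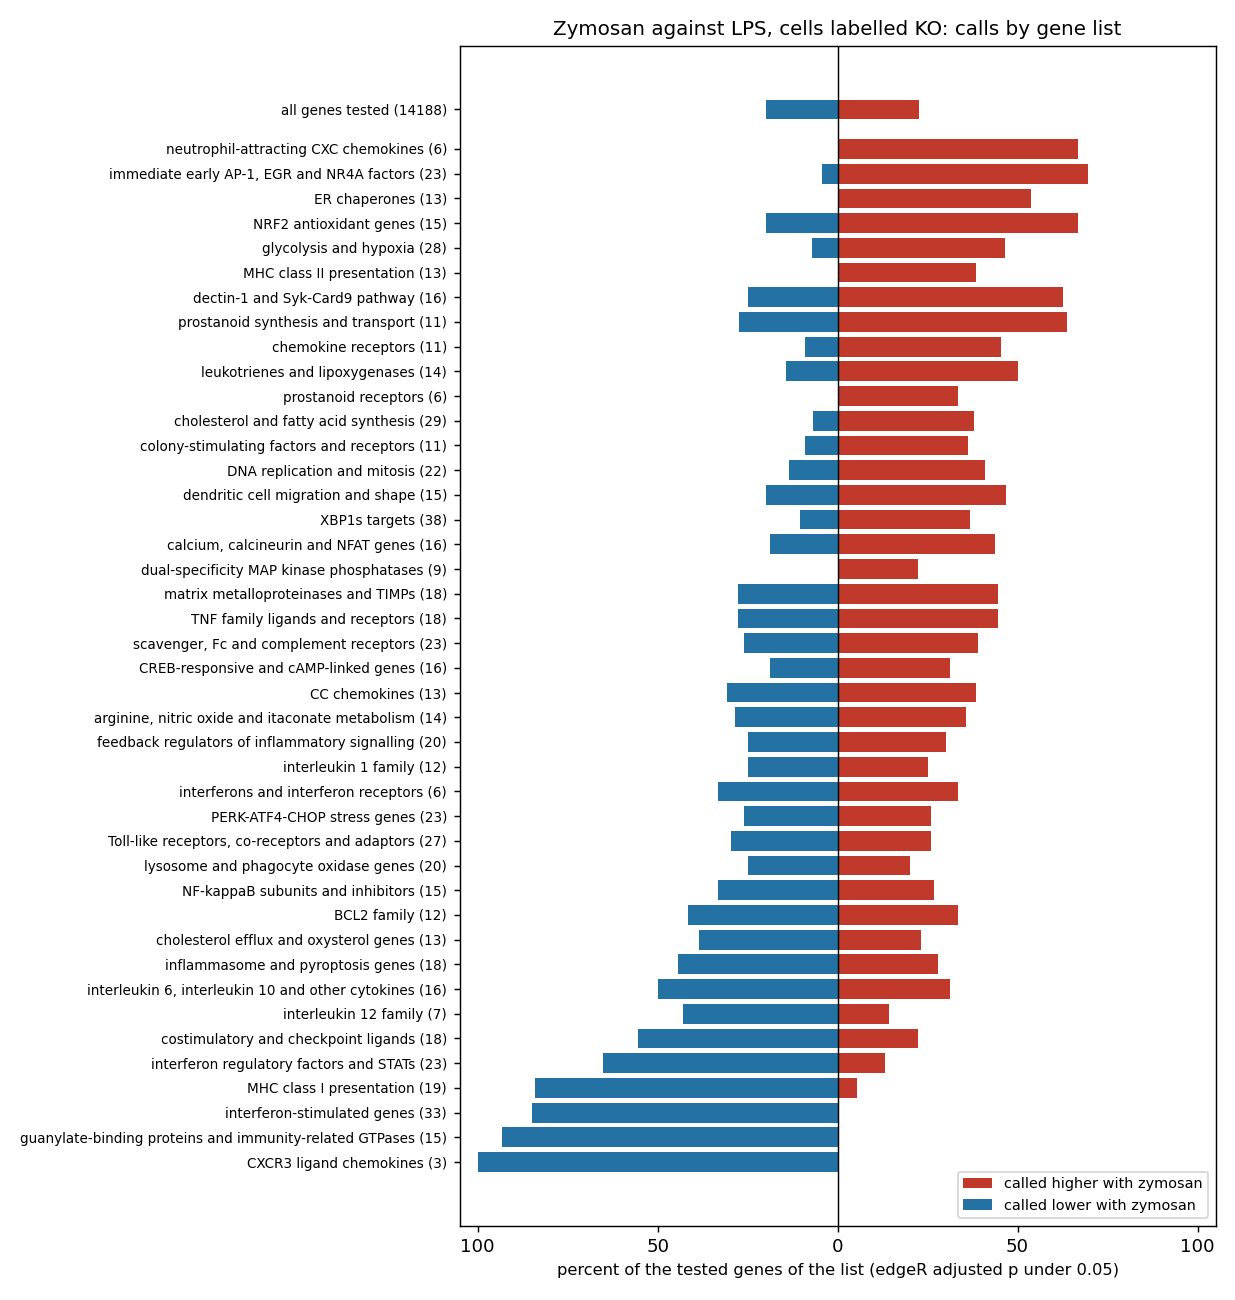
For each gene list (number tested in brackets), the percent of tested genes called higher (red, to the right) or lower (blue, to the left) with zymosan than with LPS in KO cells, with all genes tested at the top. Interferon-stimulated genes, guanylate-binding proteins, interferon regulatory factors and MHC class I lie mostly to the left. Interferons and their receptors lie equally to both sides. Immediate early factors and neutrophil-attracting chemokines lie mostly to the right, and all genes at 22.7% and 20.0%.

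Costimulatory molecules and class I antigen presentation were mostly lower with zymosan, and class II was not. Cd40, the receptor through which T cells license dendritic cells (ENSMUSG00000017652, chromosome 2, 165055627 to 165072948, plus strand), stood at 176, 172, 207 and 201 CPM with zymosan and 378, 400.2, 457 and 462 CPM with LPS (log2 -1.17 ± 0.08, edgeR adjusted p = 2.04e-11). Of 18 costimulatory and checkpoint ligands 10 were lower and 4 higher (9 and 3 with summed pairs). Cd24a was among the 4 (log2 0.71 ± 0.05), and Cd83, a maturation marker, did not pass (log2 0.15 ± 0.07). For MHC class I presentation 16 of 19 genes were lower and 1 higher (12 and 1 with summed pairs, median -0.34). The immunoproteasome subunit Psmb10 (log2 -0.56 ± 0.06), the proteasome activator Psme2 (-0.52 ± 0.04) and the class I gene H2-Q4 (-0.48 ± 0.04, one of several near-identical copies) had the lowest values. Of 13 class II genes 5 were higher and 0 lower (4 and 0 with summed pairs). The peptide-loading genes H2-DMb2 (log2 0.54 ± 0.06) and H2-DMa (0.44 ± 0.05) were among the 5, and Cd74, the invariant chain, did not pass (log2 0.01 ± 0.04).

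Immediate early transcription factors were higher with zymosan: 16 of 23 were higher and 1 lower (13 and 0 with summed pairs, median 0.44). Egr1, a zinc finger factor that growth and stress signals raise quickly (ENSMUSG00000038418), stood at 20.6, 20.2, 26.3 and 29 CPM with zymosan, 9.48, 8.56, 7.6 and 8.28 CPM with LPS and 22.8, 20.6, 21.2 and 19.9 CPM untreated (log2 1.50 ± 0.12, edgeR adjusted p = 2.80e-10). Fos, an AP-1 subunit, had means of 15.3, 6.88 and, untreated, 17.9 CPM (log2 1.15 ± 0.06, edgeR adjusted p = 2.43e-13), and Egr3 had 5.8, 2.09 and 6.65 CPM (log2 1.47 ± 0.13). For Egr1 and Egr3 the zymosan range met the untreated one, for Fos it lay just below it, and for all 3 the LPS libraries were lowest. Jund and Srf did not pass.

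Of 15 NF-κB genes 4 were higher and 5 lower, against 22.7% and 20.0% over all genes. The nuclear inhibitor-like regulators Nfkbid (log2 1.18 ± 0.06, edgeR adjusted p = 7.06e-14) and Nfkbiz (0.79 ± 0.06, edgeR adjusted p = 1.69e-10) were higher. Nfkb2, the p100 precursor of the non-canonical arm, was lower (log2 -0.50 ± 0.04). The classical feedback inhibitor Nfkbia, at means of 794 and 795 CPM, and Nfkb1 did not pass, with log2 -0.00 ± 0.07 and 0.02 ± 0.04.

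Among receptors of both stimuli, Clec4n, Clec7a and Tlr4 were called higher with zymosan, and Tlr2 did not pass. On the dectin-1 list 10 of 16 genes were higher with zymosan and 4 lower (7 and 3 with summed pairs). Clec4n, which encodes dectin-2, stood at 1537, 1613, 1832 and 1726 CPM with zymosan and 967, 1016, 1068 and 1093 CPM with LPS (log2 0.69 ± 0.05, edgeR adjusted p = 1.97e-10). Clec7a, which encodes dectin-1 itself (ENSMUSG00000079293, chromosome 6, 129461591 to 129472779, minus strand), stood at 732, 753, 1044 and 1003 and 583, 592, 675 and 699.5 CPM (log2 0.47 ± 0.12, edgeR adjusted p = 0.00201, and 0.0735 with summed pairs). The mannose receptor Mrc1 was higher with zymosan than with LPS (log2 0.70 ± 0.10) and below its untreated level with both. Downstream, Card9 and the kinase Prkcd did not pass. Tlr4, the LPS receptor, had a mean of 165 CPM with zymosan, near 156 CPM untreated, and 115 CPM with LPS (log2 0.51 ± 0.06, edgeR adjusted p = 2.18e-07). Tlr2, a receptor for zymosan, did not pass (log2 0.11 ± 0.07, edgeR adjusted p = 0.238), and its partner Tlr1 was lower (log2 -0.66 ± 0.04). Over the 27 Toll-like receptor genes 7 were higher and 8 lower (5 and 3 with summed pairs), against 22.7% and 20.0% over all genes.

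Genes of prostanoid synthesis, which turns arachidonic acid into prostaglandins, were called in both directions. Ptgs2, the inducible cyclooxygenase (ENSMUSG00000032487, chromosome 1, 150100031 to 150108227, plus strand), stood at 1174, 1185, 1414 and 1193 CPM with zymosan, 626, 637, 714 and 708 CPM with LPS and a mean of 13.6 CPM untreated. Every zymosan library lay above every LPS library, 1.85-fold on average (log2 0.89 ± 0.10, edgeR adjusted p = 8.13e-08). Pla2g4a, the phospholipase that frees arachidonic acid, was lower, at 118, 121, 132 and 117 CPM with zymosan and 142, 146, 169 and 176 CPM with LPS (log2 -0.38 ± 0.06, edgeR adjusted p = 6.47e-06). Ptges, the inducible prostaglandin E synthase, was slightly higher at 100, 98, 79.8 and 78.3 and 75.6, 75.7, 77.4 and 77.3 CPM (log2 0.22 ± 0.07, edgeR adjusted p = 0.0103). That call rested on zymosan replicates 1 and 2: the adjusted p was 0.0634 without replicate 1, 0.0555 without replicate 2, 0.813 with replicates 3 and 4 alone and 0.154 with summed pairs. Ptgs1, the constitutive cyclooxygenase, had means of 94 and 72.8 CPM, both below 231 CPM untreated (log2 0.37 ± 0.07, edgeR adjusted p = 5.85e-05). Ptges2, another E synthase, and Abcc4, an exporter of prostaglandins, were lower (log2 -0.50 ± 0.07 and -0.49 ± 0.07). In all, 7 of 11 genes were higher and 3 lower (5 and 3 with summed pairs), and Ptger4, a receptor for prostaglandin E2, was higher (log2 0.33 ± 0.05).

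**Figure D4:**
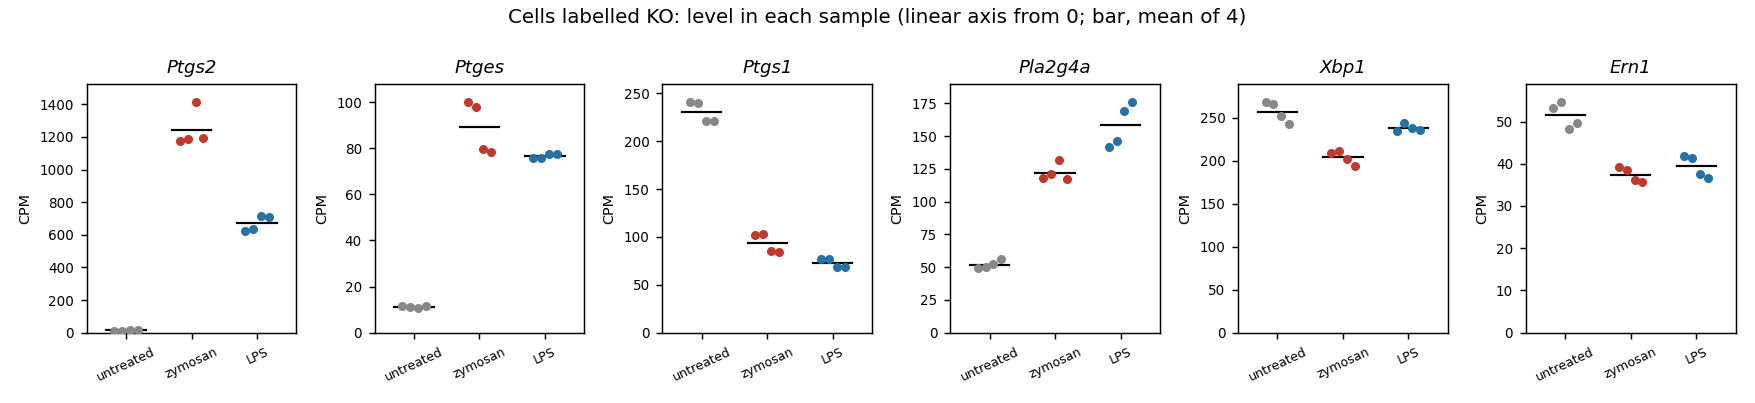
Level in CPM (vertical axis, linear from 0) of 4 prostanoid genes, Xbp1 and Ern1 in each library of untreated (grey), zymosan (red) and LPS (blue) KO cells, with a bar at the mean. Ptgs2 and Pla2g4a differ between the stimuli in opposite directions, and Ern1 overlaps.

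ER folding genes were modestly higher with zymosan. Xbp1 (ENSMUSG00000020484, chromosome 11, 5520659 to 5525893, plus strand) stood at 209, 211, 202 and 194 CPM with zymosan and 234, 244, 238 and 236 CPM with LPS (log2 -0.22 ± 0.05, edgeR adjusted p = 4.27e-04, and 0.0541 with summed pairs), and these totals do not tell spliced from unspliced transcripts. Of 38 XBP1s targets 14 were higher and 4 lower (9 and 1 with summed pairs), with a median of 0.07. The largest were the signal peptidase subunit Spcs3 (log2 0.57 ± 0.05) and the oligosaccharyltransferase subunit Rpn1 (0.53 ± 0.05). Of 13 ER chaperones 7 were higher and 0 lower (5 and 0 with summed pairs). Canx, encoding calnexin, was among the 7 (log2 0.44 ± 0.06), while the main chaperone Hspa5 did not pass (log2 -0.02 ± 0.07). The PERK arm had 6 higher and 6 lower of 23 (4 and 4 with summed pairs), near the 22.7% and 20.0% over all genes. Its stress factor Nupr1 was lower (log2 -0.94 ± 0.07, edgeR adjusted p = 4.84e-11), the cystine transporter Slc7a11 higher (log2 0.55 ± 0.10, edgeR adjusted p = 4.91e-05), and Atf4 did not pass.

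Slc7a11 also belongs to the NRF2 antioxidant genes, of which 10 of 15 were higher and 3 lower (7 and 3 with summed pairs, median 0.25). Txnrd1, thioredoxin reductase (log2 0.56 ± 0.07), and Gclm, a subunit of the enzyme that starts glutathione synthesis (log2 0.50 ± 0.08), were also higher. For glycolysis and hypoxia 13 of 28 were higher and 2 lower (8 and 1 with summed pairs), with Adm (log2 0.91 ± 0.10) and the ER oxidase Ero1l (0.67 ± 0.06) highest. Nos2, the inducible nitric oxide synthase, was lower, with 1980 against 3341 CPM (log2 -0.75 ± 0.08, edgeR adjusted p = 2.76e-08), and Acod1, which makes itaconate, did not pass at 4258 and 3801 CPM (log2 0.16 ± 0.08). Ido2, of tryptophan breakdown, had the largest fold of that metabolic list at a low level (0.359 against 1.84 CPM, log2 -2.36 ± 0.18). Inflammasome genes were called in both directions: 5 of 18 were higher and 8 lower (4 and 6 with summed pairs). The sensor Nlrp3 (log2 0.70 ± 0.06) was among the 5, and the protease Casp1 (-0.79 ± 0.08) was lowest.

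Adhesion and matrix genes held several of the largest differences. Cdh1, E-cadherin (ENSMUSG00000000303, chromosome 8, 106603351 to 106670246, plus strand), stood at 22.8, 22, 26 and 25.7 CPM with zymosan, 8.2, 7.94, 7.68 and 6.92 CPM with LPS and 90.9, 85.8, 99.6 and 102 CPM untreated (log2 1.65 ± 0.07, edgeR adjusted p = 5.37e-15). Both stimuli left it below every untreated library, and LPS left it lowest. Plau, the urokinase that activates plasmin, showed the same order with means of 98.7, 31 and, untreated, 223 CPM (log2 1.67 ± 0.12), as did the matrix protein Tgfbi with 416, 123 and 585 CPM (log2 1.75 ± 0.10). Timp1, an inhibitor of metalloproteinases (log2 -1.05 ± 0.11), Fscn1, the actin bundler of mature dendritic cells (-0.61 ± 0.07), and the scavenger receptor Marco (-1.10 ± 0.06) were lower with zymosan. Mmp12, a macrophage elastase, had the largest difference in CPM of any called gene, 15892 against 12268 CPM (log2 0.37 ± 0.06, edgeR adjusted p = 9.33e-06). Actb and Actg1, the cytoplasmic actins, were higher too (log2 0.56 ± 0.06 and 0.55 ± 0.04), as were the lysosomal Psap (0.34 ± 0.06) and the lipase gene Lpl (0.46 ± 0.05).

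Other genes with the largest rises had untreated levels above both stimuli: creatine kinase Ckb (log2 1.98 ± 0.12), the adhesion molecule Mcam (1.97 ± 0.23), Prune2 (2.09 ± 0.17), the DNA annealing helicase Zranb3 (2.18 ± 0.16), the glycosyltransferase Galnt9 (1.87 ± 0.15), Fam198b (1.89 ± 0.14) and Esyt3 (1.77 ± 0.14). Gem, a small GTPase, was an exception, with means of 16.2 CPM with zymosan, 4.5 with LPS and 2.81 untreated (log2 1.84 ± 0.18). The largest fall was U90926 (ENSMUSG00000029409, chromosome 5, 92209893 to 92215408, minus strand), at 8.1, 6.91, 7.18 and 7.09 CPM with zymosan and 55.3, 57.9, 70 and 63.9 CPM with LPS, 8.42-fold lower (log2 -3.07 ± 0.12, edgeR adjusted p = 1.37e-15). Thbs4, a thrombospondin (log2 -2.54 ± 0.12), the receptor Gpr31b (-2.20 ± 0.15), the chloride channel Clic5 (-1.98 ± 0.14), the pantetheinase Vnn3 (-1.60 ± 0.08) and Mucl1 (-1.62 ± 0.18) followed. Saa3, an acute phase protein, was 3.18-fold lower at means of 377 and 1198 CPM. The heat shock genes Hspa1a and Hspa1b were 2.98-fold and 3.01-fold lower, but they are near-identical copies that share reads, so their split is uncertain.

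Markers of the labelled cell type were present, and so were markers of neutrophils, macrophages and plasmacytoid dendritic cells. The 10 dendritic cell markers summed to 5267 to 5705 CPM with zymosan and 5027 to 5165 CPM with LPS, with 5 of 9 tested members higher and 0 lower. Macrophage markers summed to 1552 to 1771 and 1374 to 1398 CPM, with 3 of 7 higher and 1 lower. Neutrophil markers summed to 1774 to 2224 and 1958 to 2221 CPM, with 2 of 11 higher and 2 lower. This count differed between the replicate pairs: 2 were higher and 2 lower in replicates 1 and 2 alone (median 0.06), and 1 was higher and 9 lower in replicates 3 and 4 alone (median -0.63). Plasmacytoid markers, among them Bst2, which interferon also raises, summed to 559 to 624 CPM with zymosan and 741 to 767 CPM with LPS, with 1 of 4 tested lower. Untreated KO cells summed to only 141 to 171 CPM, and 3 of the 4 lay below both stimuli when untreated, a placement not counted over all genes. Eosinophil markers summed to 48.2 to 62.3 CPM with zymosan and 47.6 to 56.7 CPM with LPS, with 1 of 8 tested higher and 0 lower. Mast cell and basophil markers summed to 34.9 to 51.6 and 50.3 to 56.4 CPM. T, B and NK cell markers summed to at most 1.86 CPM and erythroid markers to at most 0.268 CPM in any of the 8 libraries, with 2 of 9 and 1 of 4 members without a count. In these bulk libraries fewer cells of a type and less RNA per cell cannot be told apart, and the part of cell makeup in the gene differences was not tested.

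The same contrast in WT cells shares no library with the KO contrast. There, 3481 genes (24.5%) were higher and 3106 (21.9%) lower with zymosan by edgeR. Across the 14188 genes the log2 differences of both genotypes had Pearson r = 0.63 and Spearman rho = 0.71, as a description, since genes are not independent replicates. Of the genes over 2-fold higher in KO cells 219 of 231 had the same sign in WT cells and 150 were also called there. Of those over 2-fold lower 174 of 181 had the same sign and 150 were called. Their medians were 1.29 in KO and 0.99 in WT cells for the higher genes, and -1.35 and -1.13 for the lower. These genes were chosen by their size in KO cells, so the medians are no test of a genotype difference.

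**Figure D5:**
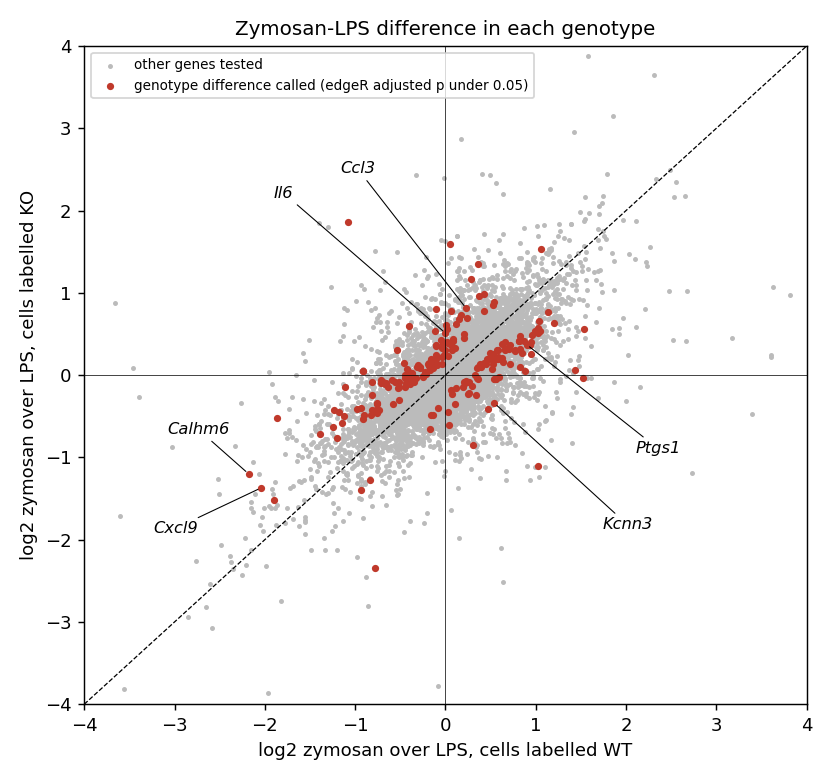
Log2 difference of zymosan over LPS in KO cells (vertical axis) against WT cells (horizontal axis) for each tested gene, with the line of equality dashed and genes whose difference between genotypes was called in red. Points lie along the diagonal, the red points stand off it on both sides, and 23 genes lie beyond the axes at 4.

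Whether the zymosan-LPS difference itself differed by genotype was tested as an interaction, in which a positive value means a larger log2 of zymosan over LPS in KO cells. By edgeR 119 genes (0.839%) were called positive and 90 (0.634%) negative. With summed pairs 0 of the 15378 genes tested were called, with a smallest edgeR adjusted p of 0.648. In that fit 869 of the 15378 had an unadjusted p under 0.05, where chance alone gives a share near 0.05. DESeq2 on all libraries called 300 and 170. Leaving out 1 library moved the counts from 24 positive (without KO LPS replicate 2) to 224 (without WT zymosan replicate 4). The genes below are those with the smallest adjusted p or members of the lists above. Except where stated they were called with each of the 16 libraries left out.

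Among cytokines, Ccl3 had log2 0.81 in KO and 0.23 in WT cells (interaction 0.58 ± 0.11, edgeR adjusted p = 0.00981). In WT cells its means were 2046 ± 56.4 CPM with zymosan and 1748 ± 201 with LPS (SD, n = 4), against 1870 ± 121 and 1065 ± 102 in KO cells. Il6 had log2 0.00 ± 0.09 in WT cells, at 559 ± 28.6 and 558 ± 47.5 CPM, and stood at 402 ± 49.2 against 282 ± 43.2 CPM in KO cells (interaction 0.51 ± 0.12, edgeR adjusted p = 0.041). Cxcl9 was -2.04 in WT and -1.37 in KO cells (interaction 0.66 ± 0.16, edgeR adjusted p = 0.036). The Il6 and Cxcl9 calls held in only 6 of the 16 fits that leave out a library. Calhm6, a channel gene that interferon raises, had the largest interaction of those named, with 7.08 ± 0.491 and 32.1 ± 3.21 CPM in WT against 6.59 ± 1.39 and 15 ± 1.48 CPM in KO cells (interaction 0.98 ± 0.15, edgeR adjusted p = 0.00341). The Il10 interaction did not pass (edgeR adjusted p = 0.055).

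Ptgs1 had the opposite sign, with log2 0.90 in WT and 0.37 in KO cells (interaction -0.53 ± 0.09, edgeR adjusted p = 0.0082). Its means were 65.6 ± 4.21 and 35.2 ± 1.65 CPM in WT cells with zymosan and LPS, and 94 ± 10.1 and 72.8 ± 5 CPM in KO cells. The Ptgs2 interaction did not pass (edgeR adjusted p = 0.133). In the lysosomal and class II lists, Cd68 (interaction 0.53 ± 0.10) and H2-DMa (0.36 ± 0.06) were called positive (edgeR adjusted p = 0.00906 for each). Commd10, a COMMD domain protein, had the smallest adjusted p, with log2 0.34 in WT and -0.24 in KO cells (interaction -0.59 ± 0.07, edgeR adjusted p = 5.66e-05). Tmem119 and the potassium channel Kcnn3 also had opposite signs in the genotypes, 0.25 and 0.54 in WT against -0.23 and -0.34 in KO cells. Their KO calls (edgeR adjusted p = 0.00111 and 0.00964) ended with summed pairs (0.061 and 0.0943), and that of Kcnn3 also without KO LPS replicate 1 (0.0509). Gnpda1, Zdhhc9 and the ectonucleotidase Nt5e had smaller zymosan-LPS differences in KO cells, and the replication gene Mcm6 was called in WT cells only, with an interaction of 0.42 ± 0.07.

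Of the 38 XBP1s targets 5 were called in the interaction, all positive: Hyou1 (0.36 ± 0.07), Creld2 (0.31 ± 0.06), Sdf2l1 (0.45 ± 0.11), Sec61a1 (0.25 ± 0.06) and Ddost (0.21 ± 0.05), named because they make up this count after their values were seen. Their edgeR adjusted p values were 0.00981, 0.0104, 0.0333, 0.0415 and 0.0486. The calls of Sdf2l1, Sec61a1 and Ddost held in 6, 7 and 2 of the 16 fits that leave out a library. Hyou1, an ER chaperone, stood at 76.9 ± 2.36 CPM with zymosan and 58.9 ± 1.44 with LPS in KO cells, and at 168 ± 11 and 165 ± 2.23 CPM in WT cells. Over the whole list 14 were higher and 4 lower with zymosan in KO cells, and 6 were higher and 14 lower in WT cells, with medians of 0.07 and -0.04.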

How the data were processed

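RNA sequencing counts of all 24 libraries were used, per gene, as deposited. The submitters' processing notes name mm10 and the tools DESeq2, Bowtie2 and RSEM 1.2.31; what each did is not given in the sources used here. The authors' deposited counts were whole numbers for 38887 Ensembl genes and were not rounded or changed further, although the plan allowed for RSEM counts with decimals. RSEM shares reads between near-identical genes, so counts of such copies are less certain. GENCODE M21 (GRCm38) named 37570 of the identifiers (96.6%) and gave positions.

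In R 4.3.3, edgeR 4.0.16 fitted 1 quasi-likelihood model, with 1 coefficient for each of the groups, to all 24 libraries (filterByExpr, TMM, 14188 genes tested, common biological coefficient of variation 0.0686). Contrasts were zymosan against LPS in KO cells, the same in WT cells, and their difference. The script was tested on simulated data. Alternatives were DESeq2 1.42.0, its size factors, no low-count filter, replicate blocks, a pair term, summed pairs, either pair of replicates alone, only the groups compared, each library left out, and a shorter promoter window.

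Gene lists were described by counts and medians, with no list test. Named genes were prostaglandin genes, Ern1 and Xbp1, the 12 largest rises and falls (mean of at least 5 CPM, no overlap), up to 3 called and 2 uncalled members of each list, the 10 largest CPM differences and the 10 smallest interaction p values. Not every gene allowed was printed, and others are said to have been chosen after their values were seen. The comparison, lists and rules were chosen with earlier results of these data known. Replicate numbers were not taken to pair libraries: the deviations of same-numbered zymosan and LPS libraries from their group means correlated at 0.07, 0.04, 0.09 and 0.03.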

Additional observations from a re-analysis of the deposited data

Results flagged for a closer look

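Of 300 groups of 4 libraries looked at (150 genes named, 2 stimuli), 8 held a library far from the other 3 by Dixon's criterion, which chance gives in about 1 of 20 groups. With zymosan, Ptgs2 was highest in replicate 3 (1414 CPM), Spcs3 (131 CPM) and Mcl1 (989.7 CPM) were highest in replicate 3, Srf was highest in replicate 4 (31.6 CPM), Ero1l was lowest in replicate 4 (1929 CPM) and Abcc4 was lowest in replicate 1 (9.79 CPM). With LPS, Prune2 was highest in replicate 4 (2.47 CPM) and Bmf in replicate 1 (42.5 CPM).

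For 21 of the genes named, the zymosan-LPS difference differed between the genotypes in the edgeR interaction test over all libraries. The value was positive, a larger log2 of zymosan over LPS in KO cells, for Calhm6 (0.98), Cxcl9 (0.66), Ccl3 (0.58), Cd68 (0.53), Il6 (0.51), Sdf2l1 (0.45), Mcm6 (0.42), H2-DMa (0.36), Hyou1 (0.36), Creld2 (0.31), Sec61a1 (0.25) and Ddost (0.21). It was negative for Kcnn3 (-0.88), Commd10 (-0.59), Nt5e (-0.58), Ptgs1 (-0.53), Bub1 (-0.50), Tmem119 (-0.48), Gnpda1 (-0.40), Stard4 (-0.38) and Zdhhc9 (-0.38). None of these calls was made with summed pairs.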

How the results depend on the processing

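The counts of genes higher and lower in KO cells stayed within 1.5 times of 3227 and 2832 under every alternative but summed pairs, which gave 1969 and 1582 (2280 and 1979 in WT cells). Leaving out 1 library gave 2978 to 3041 higher and 2548 to 2685 lower. The genotype difference moved far more. It went from 119 positive and 90 negative calls to 300 and 170 with DESeq2, 0 and 0 with summed pairs, 892 and 749 on replicates 1 and 2 only, 401 and 210 on replicates 3 and 4 only, and 823 and 523 with the pair term. Leaving out 1 library gave 24 to 224 positive and 22 to 155 negative. The cause was not tested. With replicate number as a block nested in genotype it gave 688 and 417, and with a block shared by the genotypes 609 and 394. In KO cells the nested block gave 3528 higher and 3144 lower, and not every library correlated best with its own number.

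Of 125 named genes called in KO cells, 115 kept their call under all 18 alternatives and 0 changed direction. Of 25 named genes not called, 14 were called under at least 1 alternative, Ifi204 under 8, Acod1 under 6, Parp14 and Cd83 under 5 and Tlr2 under 4. The calls of Creld2 and Ddost also ended with summed pairs (edgeR adjusted p = 0.0583 and 0.151), as did those given beside their genes. The kappaB share among genes over 2-fold higher was 7.45% of promoters, against 3% of all, from 100 bases before the start to 50 after it. The lowest counts, as in Ifnb1 and Csf2, limit the precision of those folds.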

Other observations

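Gene lists outside inflammation held genes called in both directions, and the balance of several depended on the replicates used. Cholesterol and fatty acid synthesis had 11 of 29 genes higher with zymosan and 2 lower (median 0.11), against 22.7% and 20.0% over all genes. The counts were 6 and 1 with summed pairs, 12 and 2 in replicates 1 and 2 alone (median 0.10), and 7 and 6 in replicates 3 and 4 alone (median -0.01). The fatty acid desaturase Fads1 was higher (log2 0.46 ± 0.08, edgeR adjusted p = 4.24e-05) and the mevalonate enzyme Pmvk lower (log2 -0.56 ± 0.07). Hmgcs1, near the start of the pathway, did not pass at 150.5 and 152 CPM. In WT cells 21 of the 29 were higher and 1 lower, and 5 were called negative in the interaction, 0 positive. Stard4, a cholesterol carrier outside that list, had log2 0.19 in KO and 0.57 in WT cells (interaction -0.38 ± 0.07, edgeR adjusted p = 0.0079), and its KO call ended with summed pairs (0.0777).

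Genes of DNA replication and mitosis had 9 of 22 higher with zymosan and 3 lower (5 and 2 with summed pairs). In replicates 1 and 2 alone 11 were higher and 2 lower (median 0.21), and in replicates 3 and 4 alone 4 were higher and 8 lower (median -0.03). The proliferation marker Mki67 (log2 0.54 ± 0.08, means 163 and 113 CPM) and the spindle checkpoint kinase Bub1 (0.54 ± 0.07) were higher, and cyclin gene Ccne1 was lower (-0.58 ± 0.09). For Bub1 the WT difference was 1.05 and the interaction -0.50 ± 0.11 (edgeR adjusted p = 0.024), a call not made with summed pairs. Leukotriene and lipoxygenase genes had 7 of 14 higher and 2 lower (6 and 1 with summed pairs), with the epoxide hydrolase Ephx1 higher (log2 0.78 ± 0.09) and the cysteinyl leukotriene receptor Cysltr2 lower (-0.79 ± 0.11). In the BCL2 family, which sets the threshold of apoptosis, 4 of 12 were higher and 5 lower (1 and 4 with summed pairs). Over all genes 22.7% were higher and 20.0% lower. Bcl2 itself was higher with zymosan (8.33 against 4.61 CPM, and 19.5 CPM untreated, log2 0.86 ± 0.10), the BH3-only gene Bmf was lower (log2 -0.59 ± 0.12), and Mcl1 did not pass.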
